A study of Mus musculus with 6 samples.

Results

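Arc, Homer1, Npas4, Inhba, Plk2 and Rheb are 6 genes that neurons switch on after synaptic activity and whose proteins act at synapses or control genes that do. They were chosen by name, and all 6 were found among the 19943 genes of the series. RNA of the medial prefrontal cortex of C57BL/6 mice was sequenced in 3 isolated libraries, from mice housed alone for 3 weeks after weaning, and in 3 control libraries, whose housing the labels call only control. Mouse age is 6 weeks in the sample labels and 7 weeks in the design text. Libraries are called isolated 1 to 3 and control 1 to 3, and whether they came from separate animals is not stated, so each p-value reflects library-to-library spread that may be technical. Expected counts summed to between 18390902 and 18606573 in isolated and between 18226448 and 18544306 in control libraries.

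Synaptic activity lets calcium into a neuron, and calcium-dependent kinases then act on factors such as CREB, SRF and MEF2 that are already bound at these genes. The first wave holds transcription factors, Npas4 among them, and effectors that work directly at the synapse. In the cortex such transcripts follow recent experience and decay quickly, so they are used to mark recently active cells.

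All 6 genes passed the filter on low counts, and none differed between the groups at an adjusted p under 0.05 with edgeR's quasi-likelihood test. That threshold was passed by 0% of the 15169 genes tested. At an unadjusted p under 0.05, 535 genes passed with edgeR and 306 with DESeq2, and none of the 6 was among them in edgeR. Of the 15169 genes tested, 50.8% had a lower mean in isolated libraries. Of the 6, 3 had a higher and 3 a lower mean in isolated libraries, with a median log2 difference of -0.06, against a median of -0.0018 over all genes tested. That median rests on single libraries: it was -0.022 when control 1 was left out, -0.00015 when control 2 was and -0.019 when isolated 2 was. Leaving out isolated 1 gave -0.10, with 5 of the 6 lower. Values of the groups overlapped for every one of the 6, whereas 4.12% of all genes tested lay wholly higher and 4.73% wholly lower in isolated libraries. Arc differed from the other 5 in how widely it varied between libraries, above all between control libraries.

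The start regions of Npas4, Homer1 and Plk2 are shown, each with more than 1 match to TGACG. These letters are the core of the cyclic AMP response element (CRE) that CREB is known to recognise. Of these windows, only that of Plk2 held the full element, TGACGTCA. The windows run from 250 bases before to 50 bases after the start of transcription, 5′ to 3′ along the gene, from RefSeq on GRCm38.p6. Capitals mark TGACG, the CRE core, on either strand.
Npas4 (chr19:4989922-4990221, minus strand): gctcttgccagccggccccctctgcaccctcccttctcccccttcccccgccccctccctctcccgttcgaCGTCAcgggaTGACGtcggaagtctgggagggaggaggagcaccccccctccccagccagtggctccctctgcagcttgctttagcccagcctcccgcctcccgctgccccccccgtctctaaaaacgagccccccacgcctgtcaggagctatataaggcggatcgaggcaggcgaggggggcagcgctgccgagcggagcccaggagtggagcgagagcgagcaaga
Homer1 (chr13:93303507-93303806, plus strand): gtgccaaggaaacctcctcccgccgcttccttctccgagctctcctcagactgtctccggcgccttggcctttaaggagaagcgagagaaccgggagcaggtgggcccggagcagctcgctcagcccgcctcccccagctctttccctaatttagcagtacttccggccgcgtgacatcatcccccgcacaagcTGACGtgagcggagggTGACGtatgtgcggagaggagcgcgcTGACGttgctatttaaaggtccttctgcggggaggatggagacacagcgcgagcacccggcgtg
Plk2 (chr13:110394794-110395093, plus strand): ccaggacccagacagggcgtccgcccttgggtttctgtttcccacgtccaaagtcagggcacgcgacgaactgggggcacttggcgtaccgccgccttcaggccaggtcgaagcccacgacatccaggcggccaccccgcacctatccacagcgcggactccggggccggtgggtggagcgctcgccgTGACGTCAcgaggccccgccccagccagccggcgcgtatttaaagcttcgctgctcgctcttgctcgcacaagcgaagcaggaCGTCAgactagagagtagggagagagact

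RefSeq windows were matched for 5 of the 6 genes, with 2 for Homer1, and Arc had no entry. For Npas4, Inhba and the second Homer1 window, the start of transcription used lies inside the gene span given below, not at its end. The letters TGACG occurred 2 times in the Npas4 window, starting at positions -179 and -169 relative to the start of transcription, and 3 times in the Homer1 window shown, at -56, -40 and -14. The Plk2 window held the full palindrome TGACGTCA at -62, which counts as a match to TGACG on each strand, and a further TGACG at 22. Rheb held 1 match to TGACG, at -247, and the E-box letters CACGTG at -96, while Inhba held TATAAA at -91 and no TGACG. The second Homer1 window (chr13:93307784-93308083) held none of the letters searched. Of 32817 RefSeq windows of this length, 20.8% held TGACG at least once, 1.79% held TGACGTCA, 7.15% held CACGTG and 13.6% held TATAAA. With 3 or more matches to TGACG, as in the Homer1 and Plk2 windows shown, there were 1.03%. The serum response element (the CArG box), the AP-1 letters TGANTCA and the Egr letters GCGNGGGCG were found in none of these windows and in 1.63%, 7.81% and 5.56% of all windows. A match describes letters only and was not tested as a binding site.

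Arc (Entrez gene 11838, chromosome 15 from 74669081 to 74672570 on GRCm38, minus strand) encodes a protein that travels to active synapses and speeds the removal of AMPA receptors from them. It stood at 73.6, 76.5 and 144 CPM (counts scaled to library size with TMM factors) in isolated 1, 2 and 3, and at 510, 168 and 71.1 CPM in control 1, 2 and 3. Isolated 1 and 2 and control 3 were alike, isolated 3 and control 2 were higher, and control 1 stood alone, 7.17-fold above control 3. The groups overlapped, since control 3 was below every isolated library. The group means were 98.2 ± 40.1 CPM in isolated and 250 ± 231 CPM in control libraries (SD, n = 3 each).

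The log2 difference of Arc, isolated over control, was -1.35 (SE 0.65, 95% interval -2.85 to 0.16), with an edgeR adjusted p of 0.999. A two-sided exact permutation test of mean log2 CPM over libraries gave p = 0.4, where the smallest p that 3 against 3 libraries allow is 0.1. Leaving out control 1 brought the log2 difference to -0.29, and leaving out control 3 brought it to -1.79.

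**Figure D1:**
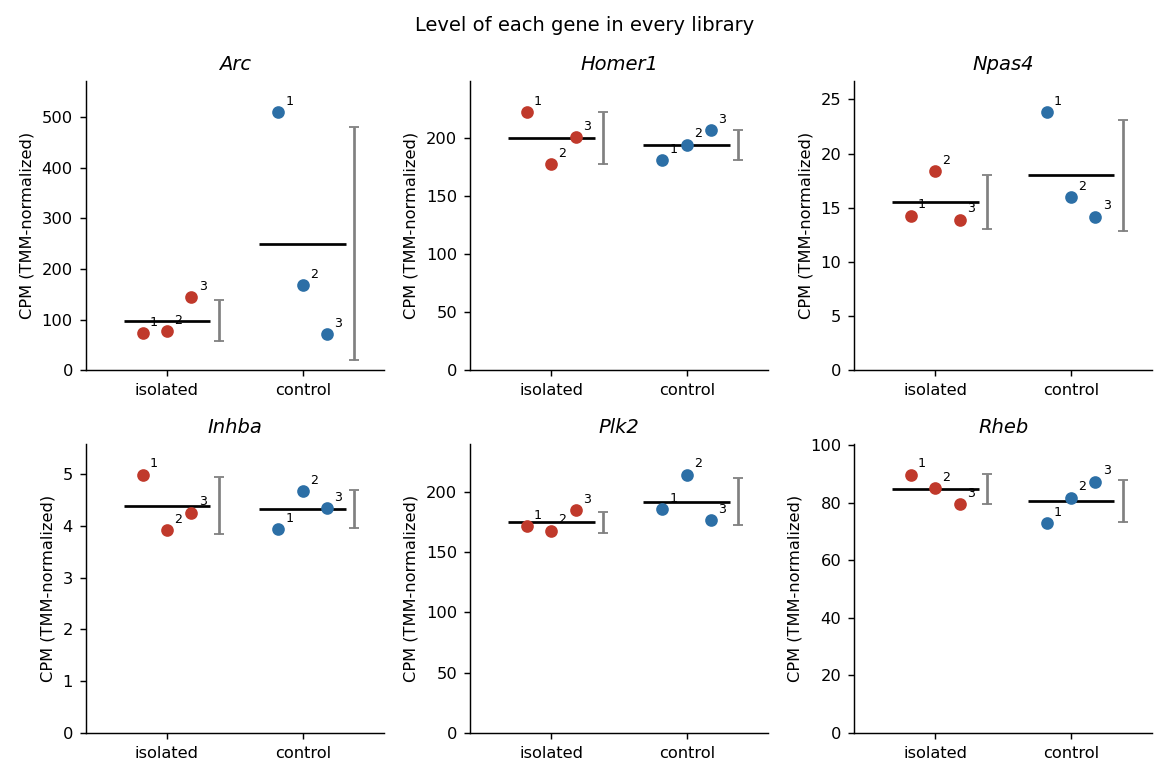
Level of each of the 6 genes in TMM-normalized CPM (vertical axes, starting at 0), with isolated libraries in red on the left and control libraries in blue on the right. Numbers beside the points are replicate numbers, black lines are group means and grey bars show the mean ± SD (n = 3). Arc reaches 510 CPM in control 1 and 71.1 CPM in control 3, while the points of the other 5 genes overlap between groups over a much smaller relative range.

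Expressed as a range, Arc spanned 2.84 log2 units between its highest and lowest library. Among 11702 genes with a mean of at least 5 CPM, 29 (0.248%) had a wider range. Npas4 spanned 0.77, which 5.79% of these genes exceeded, and Plk2, Inhba, Homer1 and Rheb spanned between 0.30 and 0.35, which 33.4% to 43% of genes exceeded. The coefficient of variation of Arc was 40.8% in isolated and 92.3% in control libraries, where counting error alone would give 2.34% and 1.47%. Exceeding counting error was not particular to Arc: over all 6 libraries Npas4 varied by 23%, where counting error gives 5.69%, and Homer1, Plk2 and Rheb by 7.36% to 9.07%, where it gives 1.66% to 2.56%.

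Isolated 3 and control 2, the libraries with the highest striatal marker levels, ranked just below control 1 in Arc. The summed level of 12 markers of striatal projection neurons, the main cells of a region near the prefrontal cortex, was 656, 630 and 2576 CPM in isolated 1, 2 and 3 and 1186, 3530 and 449 CPM in control 1, 2 and 3. Control 1, the library with the highest Arc, came next in this sum after control 2 and isolated 3. Control 3 was lowest both in this sum and in Arc. Markers of cortical glutamatergic neurons, the main cells of the labelled tissue, summed to 7488 to 8901 CPM in isolated and to 7500 to 9243 CPM in control libraries, and those of oligodendrocytes to 3577 to 6568 and 2750 to 4598 CPM. When control 2 and isolated 3 were both left out, Arc had a log2 difference of -1.95 (edgeR adjusted p = 1), and with the striatal level as a covariate it had -1.30 (edgeR adjusted p = 0.816). In bulk tissue, the number of active cells and the Arc RNA per cell cannot be told apart as sources of the spread between libraries. A part of the tissue mix in that spread was not tested beyond these settings.

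Npas4 (Entrez gene 225872, chromosome 19 from 4984353 to 5003439, minus strand) encodes a transcription factor that neurons make in response to depolarization and that controls genes for inhibitory synapses. It was measured at 14.3, 18.4 and 13.9 CPM in isolated 1, 2 and 3 and at 23.8, 16 and 14.2 CPM in control 1, 2 and 3. As with Arc, control 1 was the highest library, while isolated 2 exceeded control 2 and control 3. The log2 difference was -0.22 (SE 0.20, 95% interval -0.69 to 0.26, edgeR adjusted p = 0.999). Leaving out control 1 turned its sign, to 0.04, and leaving out control 3 or isolated 2 gave -0.36 and -0.35.

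Homer1 (Entrez gene 26556, chromosome 13 from 93303757 to 93405129, plus strand) encodes scaffold proteins that tie metabotropic glutamate receptors to Shank and to calcium stores. It stood at 222, 178 and 201 CPM in isolated 1, 2 and 3 and at 181, 194 and 207 CPM in control 1, 2 and 3. Its highest and its lowest library were both isolated, and control 1 was the lowest control. The log2 difference was 0.05 (SE 0.09, 95% interval -0.17 to 0.26, edgeR adjusted p = 0.999), and its sign turned without control 1 (-0.0033) and without isolated 1 (-0.037).

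Homer1 makes long scaffolds and a short form, Homer1a, which lacks the part that joins scaffolds together, and it is the short form that activity induces. The deposited tables give a single level for the 4 Homer1 transcripts they list, so the short form was not measured separately. GENCODE transcripts paired with these entries encode proteins of 186 residues, the short form, on a transcript of 5713 bases, and of 354 to 370 residues on transcripts of 2765 to 4287 bases. The gene length in the tables differed between libraries for 93.7% of the 5098 genes listed with several transcripts in all 6 tables and for 0 of 11594 genes with a single transcript. For Homer1 it was 3968, 3980 and 4000 bases in isolated 1, 2 and 3 and 3897, 4061 and 4060 bases in control 1, 2 and 3. The isolated values lay between those of control 1 and the other controls, and how each form enters this length is not stated in the labels or headers.

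Plk2 (Entrez gene 20620, chromosome 13 from 110395044 to 110400844, plus strand) encodes a polo-like kinase that is induced by activity and weakens excitatory synapses by marking the spine protein SPAR for breakdown. It was measured at 171, 168 and 184 CPM in isolated 1, 2 and 3 and at 185, 214 and 176 CPM in control 1, 2 and 3. Only isolated 3 exceeded any control library, namely control 3. The log2 difference was -0.14 (SE 0.08, 95% interval -0.33 to 0.06, edgeR adjusted p = 0.999). Control 2, the highest library, carried much of it, since the difference was -0.05 without that library. With the striatal level as a covariate the difference was -0.12 (edgeR adjusted p = 0.792).

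Inhba (Entrez gene 16323, chromosome 13 from 16004256 to 16031609, plus strand) encodes the beta A subunit of activin, a secreted factor of the TGF-beta family that protects neurons and shapes spines. It was the scarcest of the 6, with 92, 72 and 80 expected counts in isolated 1, 2 and 3 and 73, 86 and 79 in control 1, 2 and 3. These correspond to 4.99, 3.92 and 4.26 CPM in isolated and to 3.95, 4.68 and 4.34 CPM in control libraries. Over the 6 libraries its coefficient of variation was 9.65%, where counting error alone gives 11.2%, so no spread beyond counting error was detectable at this depth. The log2 difference was 0.02 with a 95% interval from -0.32 to 0.36 (edgeR adjusted p = 0.999), and it was -0.04 without control 1 and -0.08 without isolated 1.

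Rheb (Entrez gene 19744, chromosome 5 from 24802823 to 24842361, minus strand) encodes a small GTPase that switches on the kinase complex TORC1 and with it protein synthesis. It stood at 89.7, 85.1 and 79.5 CPM in isolated 1, 2 and 3 and at 72.8, 81.7 and 87.3 CPM in control 1, 2 and 3. Control 1 was the lowest library and isolated 1 the highest. The log2 difference was 0.07 (SE 0.08, 95% interval -0.11 to 0.26, edgeR adjusted p = 0.999), and it came to 0.0035 when control 1 was left out and to 0.03 when isolated 1 was. Expected counts of Rheb were not whole in any of the 6 libraries, as an estimator gives where reads match more than a single entry, and its level is uncertain to that extent. Exons of other genes overlapped 0% of the exon bases of each of the 6 genes on either strand in GENCODE.

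**Figure D2:**
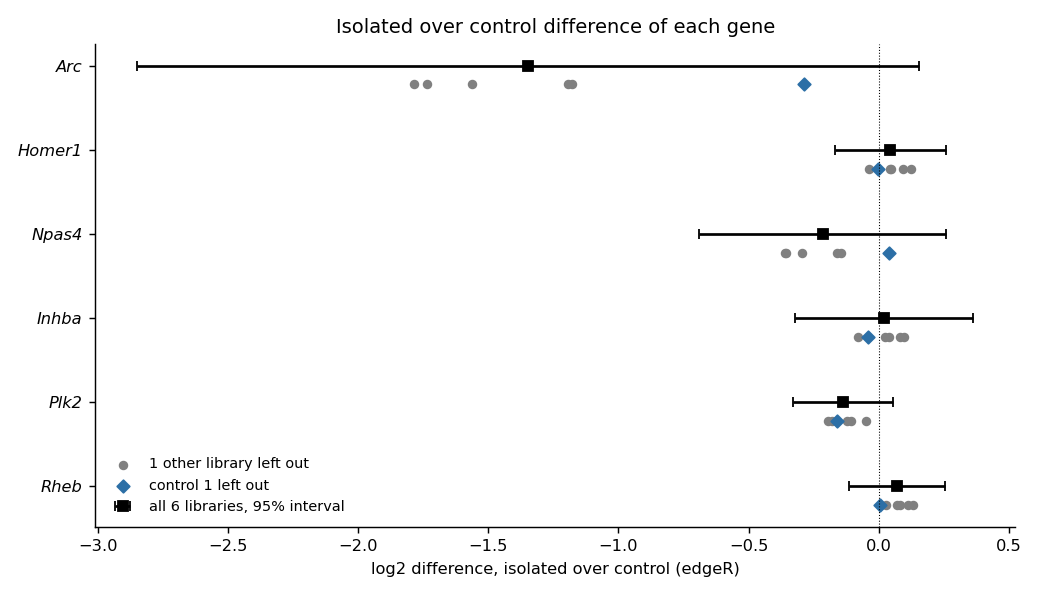
Log2 difference of each gene, isolated over control, from edgeR (horizontal axis). Black squares with bars are estimates from all 6 libraries with 95% intervals, grey points leave out 1 library other than control 1, and blue diamonds leave out control 1. Every interval includes 0, and the Arc estimate is -1.35 with all libraries and -0.29 without control 1.

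The other 5 genes had the same order of length-corrected levels in both groups. In FPKM, which divides by gene length, isolated libraries averaged 62.3 ± 3.67 for Plk2, 56.4 ± 2.82 for Rheb, 50.1 ± 5.42 for Homer1, 32.2 ± 13.5 for Arc, 4.71 ± 0.748 for Npas4 and 2.9 ± 0.343 for Inhba (SD, n = 3). Control libraries averaged 81.6 ± 75.1 FPKM for Arc, 68.4 ± 7.64 for Plk2, 53.5 ± 4.75 for Rheb, 48.1 ± 2.11 for Homer1, 5.45 ± 1.55 for Npas4 and 2.86 ± 0.26 for Inhba. Rheb and Homer1 overlapped in both groups, Homer1 and Arc overlapped in isolated libraries, and Arc and Plk2 overlapped in control libraries. The other neighbours in the order did not overlap. By mean, Arc stood at the top in control libraries and between Homer1 and Npas4 in isolated ones. By median FPKM it was at 25 in isolated and 55.4 in control libraries, and control 3 (23) was at the isolated level.

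Of the 5 genes whose pattern lay nearest to that of Arc, 4 are activity-induced transcription factors or feedback genes. Likeness was measured as the root mean square difference of log2 CPM, centred on each gene's mean, over the 6 libraries among genes with a mean of at least 5 CPM. Only Arc among the 6 spanned more than 1 log2 unit, so the other 5 were not compared in this way. Dusp1, a phosphatase that shuts off MAP kinases, came nearest at 0.43, followed by Junb, an AP-1 factor, at 0.44, the nuclear receptor gene Nr4a1 at 0.48, the zinc finger factor gene Egr2 at 0.56 and the heat shock gene Hspa1b at 0.56. The median over the other 11701 genes was 1.01, which is about what a gene that hardly varied would score against Arc. Hspa1b has a near-identical copy, Hspa1a, so its reads are uncertain.

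Dusp1 stood at 20.7, 18.2 and 28.1 CPM in isolated 1, 2 and 3 and at 57.5, 32.9 and 18.4 CPM in control 1, 2 and 3. Junb stood at 27.5, 26.5 and 41.1 CPM in isolated and at 80, 53.1 and 27.5 CPM in control libraries, and Nr4a1 at 62.1, 57.4 and 81.2 CPM in isolated and 163, 94.1 and 57.8 CPM in control libraries. In these 3 genes, as in Arc, control 1 was highest, followed by control 2 and then isolated 3. They were picked for their likeness to Arc, so the shared order is no separate result. Their log2 ranges of 1.65, 1.59 and 1.50 were smaller than that of Arc.

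**Figure D3:**
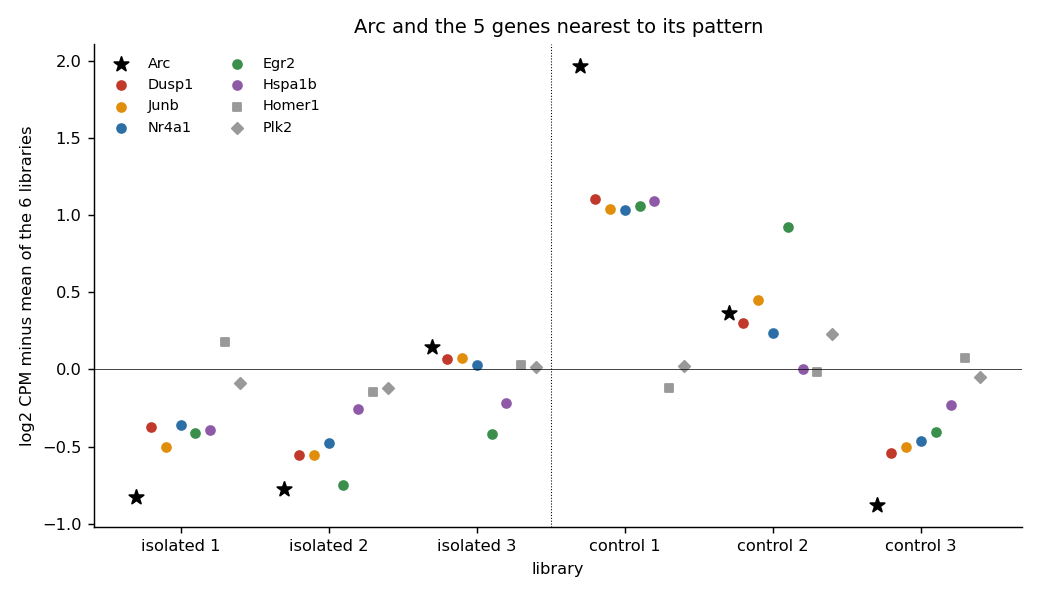
Log2 CPM minus the mean of the 6 libraries (vertical axis) for Arc, the 5 genes nearest to its pattern, and Homer1 and Plk2 for comparison, in each library (horizontal axis, isolated left of control). Arc lies 1.96 above its mean in control 1 and at -0.88 in control 3, and Homer1 and Plk2 stay within 0.23 of theirs.

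Of 27 other activity-induced transcription factors and feedback genes, 25 had a lower and 2 a higher mean in isolated libraries. A lower mean was found for 50.8% of all genes tested. The median log2 difference of the 27 was -0.40. None passed an adjusted p under 0.05 with edgeR. At an unadjusted p under 0.05, 6 were lower and 0 higher, where 2% of all genes tested were lower and 1.52% higher. Klf10 (34.9 ± 2.97 CPM in isolated and 54.8 ± 13.4 CPM in control libraries, SD, n = 3 each), Egr2, Nr4a2 and the growth arrest gene Btg2 had the smallest p, with log2 differences of -0.65, -1.17, -1.02 and -0.56. The groups did not overlap for 5 of the 27, all lower in isolated libraries, as were 4.73% of all genes tested. Egr2 was apart only narrowly, with isolated 1 at 5.16 CPM and control 3 at 5.17 CPM. Nr4a2 was at 78 CPM in control 2, against 34.2 and 33.9 CPM in control 1 and control 3. The highest library was control 1 for 21 of the 27 genes (77.8%), against 17.3% of all genes tested, and control 1 was also the highest library for Arc. Leaving out control 1 gave a median of -0.20 with 3 genes lower at that p. Leaving out control 3 gave -0.54 with 19, and leaving out isolated 2 gave -0.36 with 2. Over all genes tested, 304 were lower at that p with all libraries. That count was 370 of 15354 without control 1, 526 of 15336 without control 3 and 195 of 15373 without isolated 2. Earlier results of these data on this group of genes were known, so its direction is no independent support.

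Markers of other cell types also differed in level between the groups, none at an adjusted p under 0.05 with edgeR. Of all genes tested, 50.8% had a lower mean in isolated libraries. At an unadjusted p under 0.05, 2% were lower, and 4.73% lay wholly lower. Endothelial markers were lower in isolated libraries for 7 of 8 genes (median log2 difference -0.16), with 2 at that p and 3 with groups apart. They summed to 202 to 216 CPM in isolated and 223 to 237 CPM in control libraries. Astrocyte markers were lower for 8 of 8 (median -0.08), with 1 at that p and 2 apart, and summed to 4249 to 4407 CPM in isolated and 4560 to 4806 CPM in control libraries. These sums did not overlap between the groups. Microglial markers were lower for 7 of 8 (median -0.08), with 1 at that p and 3 apart, and their sums of 317 to 335 CPM in isolated and 335 to 363 CPM in control libraries overlapped narrowly. Striatal markers were lower for 12 of 12 (median -0.43), all highest in control 2, and oligodendrocyte markers were higher for 8 of 8 (median 0.44), all highest in isolated 3. Glutamatergic and interneuron markers were each lower for 4 of 8. The part of these cell types in the values of the activity-induced genes was not tested, apart from the settings on striatal level.

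Of 29 tested effectors other than the 6, 20 had a lower and 9 a higher mean in isolated libraries, where 50.8% of all genes tested were lower. The median log2 difference of the 29 was -0.05. With edgeR, 2 had an unadjusted p under 0.05 and an adjusted p of 0.999, both lower, as were 2% of all genes tested at that p. These were Rgs4, which restrains G-protein signals, at 517 ± 39.8 CPM in isolated and 609 ± 49.1 CPM in control libraries, and Coq10b at 23.3 ± 1.46 and 26.9 ± 2.02 CPM (SD, n = 3 each). Leaving out isolated 1 gave a median of -0.11 with 25 of 29 lower, and leaving out isolated 2 gave -0.08 with 19. The count at that p was 7 when control 3 was left out, 0 when control 2 was, and 1 when control 1 or any single isolated library was. Over all genes tested, 526 were lower at that p without control 3 and 207 without control 2, against 304 with all libraries. The highest library was control 1 for 11 of the 29 (37.9%).

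**Figure D4:**
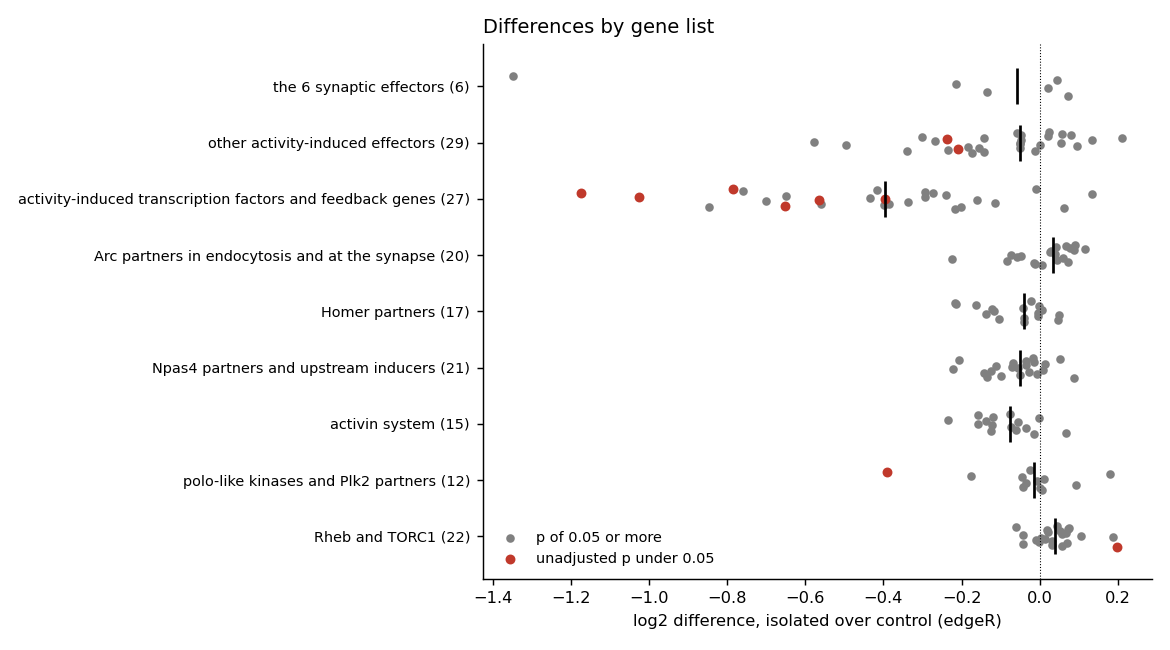
Log2 difference, isolated over control, from edgeR (horizontal axis) for the 6 genes and 8 lists of related genes, with the number tested in brackets. Each point is a gene, red where the unadjusted p is under 0.05, and black bars are medians. The list of transcription factors and feedback genes has a median of -0.40 and the other lists have medians between -0.08 and 0.04.

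Among 20 partners of Arc in endocytosis and at the synapse, 13 had a higher and 7 a lower mean in isolated libraries. A lower mean was found for 50.8% of all genes tested. The list had a median of 0.03 and 0 genes at an unadjusted p under 0.05. The smallest p there belonged to Ube3a, a ubiquitin ligase, at 49 ± 10.3 CPM in isolated and 57.2 ± 1.3 CPM in control libraries, and to Dlg4, which encodes the scaffold PSD-95, at 755 ± 41.6 and 799 ± 10.2 CPM. The median was 0.0078 with 10 of 20 higher when control 2 was left out, and 0.01 with 11 higher when isolated 1 was.

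Partners of Homer had a lower mean for 14 of 17 genes, against 50.8% of all genes tested. The median was -0.04, with 0 genes at an unadjusted p under 0.05. Leaving out control 3 gave 9 of 17 lower, leaving out control 2 or isolated 3 gave 10, and leaving out isolated 1 gave a median of -0.067. Grm5, a glutamate receptor gene whose protein Homer binds, was at 215 ± 29.1 CPM in isolated and 241 ± 55.1 CPM in control libraries. The paralogs Homer2 (83.2 ± 13.7 CPM in isolated and 84.5 ± 9.39 CPM in control libraries) and Homer3 (5.53 ± 1.44 and 6.43 ± 0.358 CPM) had log2 differences of -0.02 and -0.22. Grm5 was highest in control 2, at 304 CPM, as were 22.2% of all genes tested. That library also had the highest striatal marker level, and a link of Grm5 to it was not tested.

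Partners and inducers of Npas4 had a lower mean for 17 of 21 genes, against 50.8% of all genes tested. The median was -0.05, with 0 genes at an unadjusted p under 0.05. Srf, which encodes the serum response factor, was at 55.8, 55.5 and 60.1 CPM in isolated 1, 2 and 3 and at 70.2, 70.7 and 56.8 CPM in control 1, 2 and 3 (log2 difference -0.21, edgeR adjusted p = 0.999). Control 1 and control 2 were the highest libraries and control 3 lay among the isolated ones. The calcium channel gene Cacna1c was at 111 ± 3.91 CPM in isolated and 129 ± 25.3 CPM in control libraries, and Arnt2, with whose protein Npas4 pairs, at 471 ± 35.3 and 455 ± 45.4 CPM. The median of the Npas4 list was -0.09 when control 3 was left out, and 2 genes were lower at an unadjusted p under 0.05 when control 1, control 3 or isolated 3 was. Over all genes tested, 370, 526 and 341 were lower at that p in these settings, in that order.

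In the activin system, 14 of 15 tested genes had a lower mean in isolated libraries, against 50.8% of all genes tested. The median was -0.08, with 0 genes at an unadjusted p under 0.05. The receptor gene Acvr1 was at 29.3 ± 2.03 CPM in isolated and 31.9 ± 2.68 CPM in control libraries and Acvr2a at 44.8 ± 3.35 and 49.3 ± 6.45 CPM. The activin antagonist gene Fst was at 3.43 ± 0.959 and 3.83 ± 0.793 CPM and the related subunit gene Inhbb at 5.78 ± 0.809 and 6.45 ± 1.18 CPM. When control 2 and isolated 3 were left out, 7 of 15 were lower and the median was 0.0036. When control 2 alone was, 10 were lower and the median was -0.031. The gene Inhbe did not pass the filter on low counts.

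Of 12 polo-like kinases and Plk2 partners, 8 had a lower mean in isolated libraries, against 50.8% of all genes tested. The median of -0.02 turned to 0.05 without control 3 and to 0.02 without isolated 3, each with 5 lower. The median was between -0.04 and -0.02 when any other library was left out. At an unadjusted p under 0.05, 1 gene was lower, against 2% of all genes tested, and none was when control 1, isolated 1 or isolated 2 was left out. That gene was Plk3, a kinase of the same family that is also induced by stimulation, at 13.4, 12.3 and 15 CPM in isolated 1, 2 and 3 and at 21.8, 16.4 and 15.1 CPM in control 1, 2 and 3. Its groups did not overlap, although isolated 3 and control 3 were close, and its log2 difference was -0.39 (SE 0.15, edgeR adjusted p = 0.999). Like Arc, Plk3 was highest in control 1 and lowest, among controls, in control 3.

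The Rheb pathway had a higher mean for 17 of 22 genes in isolated libraries, where 7462 of all 15169 genes tested were higher. The median was 0.04. At an unadjusted p under 0.05, 1 gene was higher and 0 lower, against 1.52% and 2% of all genes tested. The count was 0 when control 2 or any single isolated library was left out, and with DESeq2. The median was 0.019 with 13 of 22 higher when control 2 was left out, and 0.023 with 15 higher when isolated 1 was. The gene was Nprl3, which restrains TORC1 when amino acids are short, at 30.6 ± 1.16 CPM in isolated and 26.7 ± 2.34 CPM in control libraries (log2 difference 0.20, edgeR adjusted p = 0.999). Tsc1 and Tsc2, whose complex switches Rheb off, were at 107 ± 3.35 and 168 ± 1.16 CPM in isolated and at 111 ± 4.58 and 159 ± 4.1 CPM in control libraries. Mtor, the kinase that Rheb activates, was at 167 ± 1.51 and 165 ± 2.6 CPM. Nprl3 and Tsc2 were the 2 genes of the list whose groups did not overlap, both higher in isolated libraries, where 4.12% of all genes tested were.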

How the data were processed

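RNA from medial prefrontal cortex was sequenced with reads of 50 bases on a BGISEQ-500, per the labels' protocols. The authors deposited per library an expected count (an estimate of reads per gene, not normalized), an FPKM value and a gene length in bases, per the file headers. Per the submitters' processing notes the tools were HISAT, Bowtie2 and RSEM and the build mm10; no versions are listed. A table of the whole series with 6 value columns was not used here, because no label gives its column codes.

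A gene that a table did not list counted as 0 there. An entry without a symbol, at most 0.000947% of reads, was left out. Of 19943 gene IDs, 19899 matched RefSeq GRCm38.p6, the source of symbols and coordinates. Counting intervals cover counting error only.

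Rounded expected counts entered edgeR (version 4.0.16, R version 4.3.3): filterByExpr (minimum count 10, minimum total 15), TMM factors of 0.991 to 1.01, glmQLFTest of isolated over control without covariates, and Benjamini-Hochberg adjustment over 15169 genes. Standard errors are the log2 difference over the square root of F. The fit was tested on simulated data. Exact permutation tests used scipy 1.17.1. Alternatives were DESeq2 1.42.0, limma 3.58.1 (voom, and limma-trend on log2(FPKM + 1) or log2(FPKM + 0.1), with genes at 0.1 FPKM or more in 3 libraries or without a filter), other size factors, no filter, a replicate block, a striatal covariate and leaving out libraries. The 6 genes, the lists and the alternatives were chosen with earlier results of these data known. From each list at most 4 genes with an unadjusted p under 0.05 were named, or else the 2 with the smallest p, beside named paralogs and binding partners; 1 gene that this rule names is not reported here.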

Additional observations from a re-analysis of the deposited data

How the results depend on the processing

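Under 17 alternatives no adjusted p of the 6 genes was under 0.05, and the smallest was 0.792. Arc, Plk2 and Rheb kept their direction under all 17. The log2 difference of Arc ranged from -1.79 to -0.29 when 1 library was left out, that of Plk2 from -0.19 to -0.05 and that of Rheb from 0.00 to 0.13. Homer1 ranged from -0.0367 to 0.125, Npas4 from -0.361 to 0.0392 and Inhba from -0.0806 to 0.0975, each changing sign when control 1 was left out, and Homer1 and Inhba also when isolated 1 was. Arc had an unadjusted p under 0.05 by edgeR in 4 settings: control 3 left out, isolated 3 left out, control 2 and isolated 3 both left out, and the striatal covariate, and Plk2 had one with that covariate. Arc stood at -0.97 with limma-voom and -0.95 on log2(FPKM + 1), and its difference in mean log2 CPM was also -0.97. The edgeR estimate, 2.54-fold, equalled the ratio of mean CPM, control over isolated, of 2.54. Control 1, at 510 CPM, weighs more in a mean of CPM than in a mean of log2 CPM. Other reasons were not tested.

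The number of genes called was 0 with edgeR and 1 with DESeq2 (Fkbp5) and on log2(FPKM + 0.1) (Mir709), neither of the 6, and leaving out any library gave 0. At an unadjusted p under 0.05, 535 genes passed, against 306 with DESeq2, 331 with the replicate block, 915 with the striatal covariate, 860 without control 3 and 369 without isolated 2. Same-numbered libraries correlated at 0.0254, -0.269 and -0.492 in their deviations from the group means. These values showed no pairing by number, but so few libraries cannot exclude it. With the replicate number as a block, the log2 difference was -0.996 for Arc, -0.19 for Npas4, 0.04 for Homer1, 0.02 for Inhba, -0.13 for Plk2 and 0.07 for Rheb, with 0 genes called. Of the 27 transcription factors and feedback genes, 10 were lower at an unadjusted p under 0.05 with the block and 10 with the striatal covariate, against 6 without either. Of 153 list medians under these alternatives, which were added after the data were seen, 146 moved by less than the spread (SD) between libraries. Most of these settings could hardly move a median that far, so this count does not measure stability. Depth limits Inhba, whose counts were under 100.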
